A study of Rattus norvegicus with 9 samples.

Results

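The comparison described here set 6 arrays from rats of 2 hypertension models against 3 arrays from normotensive Wistar-Kyoto (WKY) rats, and used all 9 arrays of the series. RNA came from a side branch of the saphenous artery, a vessel of the hind limb, of male rats aged 16 weeks, and was amplified over 2 cycles before hybridisation to Affymetrix RAE230A arrays. The groups were untreated WKY, WKY given adrenocorticotrophic hormone (ACTH) under the skin at 0.1 mg/kg/day for 4 weeks from week 12, and untreated spontaneously hypertensive rats (SHR), with 3 arrays each and RNA pooled from 2 to 3 rats on every array. The dose is that of the labels, and the methods of the study give a higher one. SHR differ from WKY by strain, whereas ACTH-treated rats share the strain of the controls, so a change present in both models was seen with and without a strain difference. The 2 models were weighted equally: the pooled change of a probeset was the mean of the SHR and ACTH group means minus the WKY mean, on the log2 scale of the deposited signal. Probesets that were not controls were kept where the third-highest signal over the 9 arrays was at least 44.3, which left 9099 of 15866 (15923 with the 57 controls). A probeset was called changed at a Benjamini-Hochberg adjusted p under 0.05 in limma, and errors of log2 changes are standard errors.

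Arteries of this size set the resistance to blood flow through contraction of the smooth muscle in their wall, which is lined by endothelium and bound outside by an adventitia of fibroblasts, matrix, lymphatic vessels and resident macrophages. SHR develop high blood pressure on a polygenic background, and ACTH raises it through adrenal steroids. Long-standing hypertension is known for remodelling of the wall, in which collagen and other matrix proteins, growth factors and receptor signalling of smooth muscle take part.

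Every array had the same scaled mean, and the median signal of non-control probesets lay between 52.3 and 58.1. The smooth muscle markers were strong and level: their 8 signals summed to 22915 to 26913 on the WKY arrays and to 23818 to 28319 on the hypertensive arrays. None of the 8 was called, and the pooled change was 0.07 for Tagln, an actin-binding protein of smooth muscle, and 0.02 for Myh11, its myosin heavy chain. The 3' to 5' signal ratios of 2 control transcripts differed between the sides of the comparison. The ratio of the 3' to the 5' signal of GAPDH, a glycolytic enzyme used to gauge transcript length, was 4.11 ± 0.614 (SD, n = 6) on the hypertensive and 5.41 ± 0.541 (SD, n = 3) on the WKY arrays (two-sided exact permutation test, p = 0.0476). For beta-actin the ratio was 8.91 ± 0.501 against 12.1 ± 2.06 without overlap (exact p = 0.0238, the smallest that 6 against 3 arrays allow). For hexokinase, the 3' to 5' ratios printed by the study overlapped between the sides. The part of these ratios in the results was not tested. With the GAPDH ratio as a covariate 9 probesets were called, of which 7 were among the 119 called without it. Arrays were scanned on 4 days, and no day held both ACTH and WKY arrays. With scan day in the fit, ACTH and WKY are linked only through SHR arrays. SHR 3 shared a day with ACTH, and SHR 1 and SHR 2 shared one with WKY 2. ACTH treatment and scan day are therefore poorly separated against WKY.

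The pooled change was called for 119 probesets (1.31% of those kept), of which 53 were higher (0.582%) and 66 lower (0.725%) on the hypertensive arrays. Increases ranged from 0.58 to 2.67 with a median of 1.01 on the log2 scale, and decreases from 0.54 to 3.53 with a median of 0.93. The median over all kept probesets was 0.00. An unadjusted p under 0.05 was found for 1262 probesets. Calls depended on single arrays: 18 of the 119 were called in each of the 9 fits that left out 1 array, and a gene described below lost its call without at least 1 array unless it is named among these 18.

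Most of the 6 hypertensive arrays lay beyond WKY in nearly every called probeset, but the 2 models often changed unequally. Each model by itself was called against WKY for 9 of the 53 increases and 12 of the 66 decreases. The smaller of the 2 model changes was at a median 0.395 times the larger for increases and 0.443 times for decreases. Over all kept probesets this median was 0.230. All 6 hypertensive arrays lay beyond all 3 WKY arrays in 36 of the 53 increases and in 48 of the 66 decreases, 84 in all, which was found for 2.96% and 2.84% of all kept probesets (5.79% in either direction). The fewest arrays beyond WKY for a called probeset was 3, which occurred in 2 increases and 3 decreases. By array, ACTH 1, 2 and 3 lay beyond all WKY arrays for 107, 109 and 105 of the 119 probesets, and SHR 1, 2 and 3 for 114, 112 and 111. Over all kept probesets a single array lay beyond WKY, on the side of the pooled change, for 40.3%, 44.3% and 42.0% with ACTH. In SHR the shares were 54.96%, 46.9% and 39.0%, the highest on SHR 1. Since the same signals gave the calls, these counts describe the called set and do not test it.

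**Figure D1:**
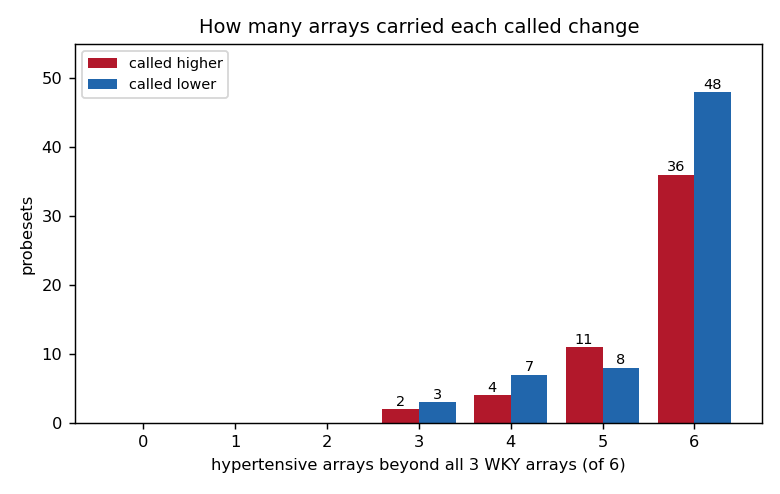
Number of called probesets (vertical axis) by the number of hypertensive arrays, of 6, that lay beyond all 3 WKY arrays in the direction of the change (horizontal axis). Bars at 6 hold 36 of 53 increases and 48 of 66 decreases, and no called probeset has fewer than 3.

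SHR and ACTH were then compared directly, a contrast that uses no WKY array. It was called for 56 of the 119 probesets (3.40% of all kept). Among these the change from WKY was larger in SHR for 18 increases and 19 decreases and larger in ACTH for 9 increases and 10 decreases, and in 3 of them the 2 models lay on opposite sides of WKY. The other 63 included 62 in which the 6 arrays also lay beyond WKY, 26 higher and 36 lower. These 62 are referred to below as shared changes, with the reservation that a contrast between models that missed the threshold does not show that they were equal. For many of those named below the 95% interval of SHR minus ACTH, not adjusted for the number of probesets, excluded 0. Examples are Cdkn1a, Clec4a3, Pf4, Lyve1, Mmrn1, Pdpn, Cntn2, P3h3, Ecm1, Col6a3 and the called probesets of Col1a2 and Igfbp5.

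**Figure D2:**
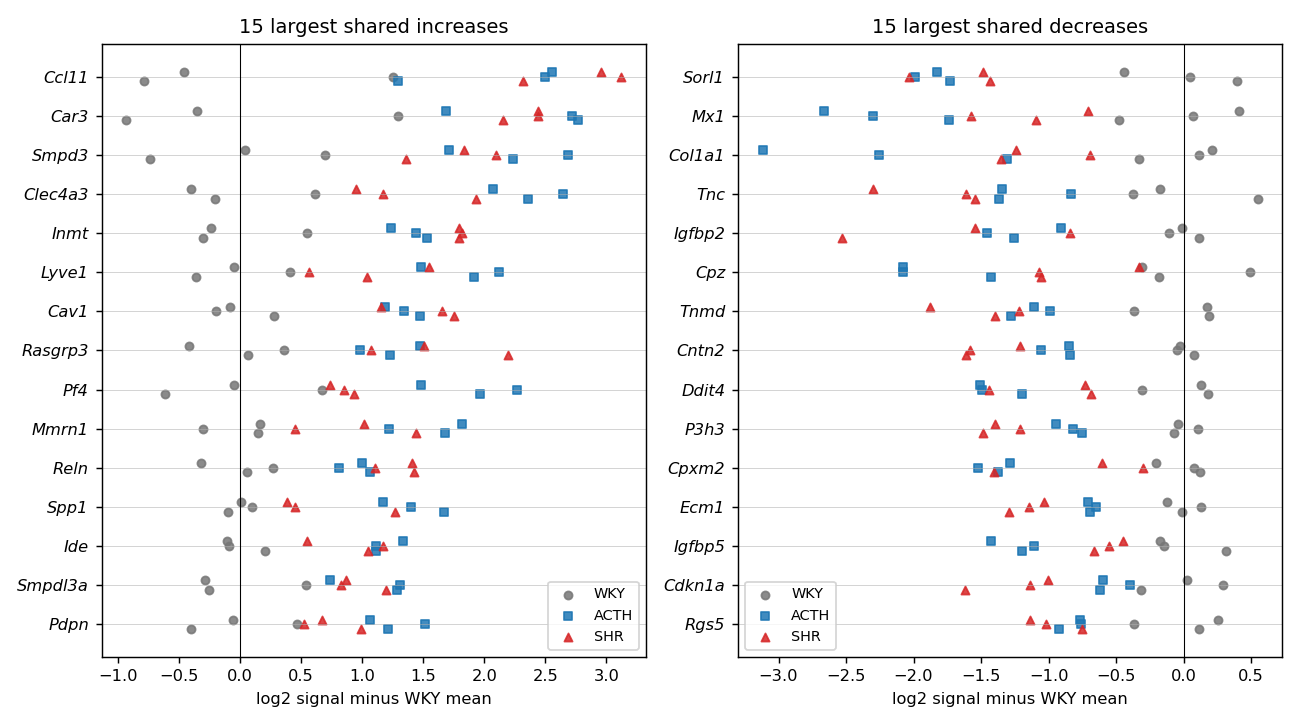
Log2 signal minus the WKY mean (horizontal axis) for the 15 largest shared increases and decreases among genes with 1 symbol, with 1 point per array and a colour and marker per group. The 6 hypertensive arrays lie on one side of the 3 WKY arrays for all 30 genes, which the choice of these genes required.

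The largest shared increase was that of Ccl11, the chemokine eotaxin, which attracts eosinophils. Its signal was 6.05, 24.9 and 7.62 on the WKY arrays, 25.6, 59.2 and 61.5 with ACTH and 52.2, 91.2 and 81.4 in SHR. The lowest ACTH array was only just above WKY 2, and the pooled change was 2.46 ± 0.44 (adjusted p = 0.0247). Car3, a carbonic anhydrase abundant in fat and muscle, had signals of 18.5, 86.4 and 27.6 in WKY, 241, 232 and 114 with ACTH and 157, 192 and 192 in SHR. WKY 2 was again the highest control, the change was 2.37 ± 0.42 (adjusted p = 0.0247), and SHR minus ACTH was -0.05 with a 95% interval of -1.12 to 1.03. A second Car3 probeset was not called (1.91 ± 0.60, adjusted p = 0.189). Signals this low are noisy, and with values under 20 raised to 20 the change of Ccl11 was 1.42 and that of Car3 2.33, both still called.

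Other shared increases included Smpd3, Smpdl3a, Inmt, Rasgrp3 and Reln, named for the size of their change and not as members of a pathway. Smpd3, a neutral sphingomyelinase that releases ceramide, read 47.6, 128 and 81.6 in WKY, 374, 511 and 260 with ACTH and 203, 338 and 283 in SHR, with no overlap and a change of 1.99 ± 0.31 (adjusted p = 0.0174). The related acid sphingomyelinase-like gene Smpdl3a rose by 1.04 ± 0.21 (adjusted p = 0.0460). Inmt, an enzyme that methylates indole amines, was among the steadiest. Its 3 SHR arrays read 240, 245 and 240 and its ACTH arrays 201, 189 and 163, against 56.2, 101 and 59.0 in WKY. The change of 1.60 ± 0.18 (adjusted p = 0.00345) was called in each of the 9 fits that left out 1 array. Rasgrp3, which loads Ras and Rap proteins with GTP, rose by 1.41 ± 0.25 (adjusted p = 0.0247). Reln, a secreted glycoprotein best known from neuronal migration, rose by 1.14 ± 0.15 (adjusted p = 0.00863) and was also called in all 9 of those fits.

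Cav1 encodes caveolin-1, the coat protein of caveolae, the membrane pits of smooth muscle and endothelium. One of its 2 probesets rose from 35.1, 25.3 and 27.4 in WKY to 80.3, 73.6 and 66.1 with ACTH and 97.8, 91.0 and 64.4 in SHR. The 6 arrays were clear of WKY, the change was 1.43 ± 0.17 (adjusted p = 0.00379), it was called in all 9 fits without 1 array, and SHR minus ACTH was 0.18 with a 95% interval of -0.24 to 0.61. The other Cav1 probeset did not follow: it read 3130, 1640 and 2119 in WKY, 2128, 2018 and 2281 with ACTH and 2136, 1876 and 2055 in SHR. That change was -0.09 ± 0.18 (adjusted p = 0.877), and all 6 hypertensive arrays lay within the WKY range. By quantitative PCR of the same samples the study reported higher Cav1 in both models, which it set against the called probeset. It also reported more caveolin-1 protein and more caveolae in both. Why the other probeset did not follow was not tested. None of the 6 genes of the list of caveolae and flotillins was called by the probeset with the highest mean signal.

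Rgs5 and Rgs2 are GTPase-activating proteins that shorten signalling from G-protein coupled receptors, Rgs5 in pericytes and arterial smooth muscle. Rgs5 read 711, 509 and 782 in WKY, 346, 387 and 386 with ACTH and 390, 324 and 299 in SHR. It fell by 0.89 ± 0.16 (adjusted p = 0.0247) without overlap, and SHR minus ACTH was -0.15 (95% interval -0.55 to 0.25). Rgs2 read 940, 914 and 980 in WKY, 505, 487 and 473 with ACTH, but 932, 736 and 715 in SHR. Its decrease of 0.61 ± 0.12 (adjusted p = 0.0419) was carried mainly by ACTH, and SHR 1 lay among the WKY arrays. A second Rgs2 probeset was not called (-0.41 ± 0.23, adjusted p = 0.477). Of the 8 RGS genes kept, these 2 were called lower and none higher, beside 0.638% and 0.551% of all genes. The median change of the 8 was 0.05. At an unadjusted p under 0.05 in limma 2 were higher and 2 lower (25% each, beside 7.07% and 5.84% of all genes). Every hypertensive array lay above all WKY arrays for 1 of the 8, and below them for 2.

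The study chose Cav1, Rgs2, Rgs5, Fyn, Gnb2 and Adcy3, among others, on these arrays, so their direction here is no independent evidence. By quantitative PCR of the same samples the study reported Rgs2 lower in both models. It reported Adcy3 lower with ACTH but not different from WKY in SHR. Fyn, a Src family kinase, read 54.1, 65.7 and 69.2 in WKY and 80.6 to 101 on the hypertensive arrays without overlap, a change of 0.52 ± 0.13 that missed the threshold (adjusted p = 0.0913). Adcy3, an adenylyl cyclase, likewise read 543 to 748 in WKY and 408 to 483 on the hypertensive arrays (-0.54 ± 0.13, adjusted p = 0.0913). The 2 probesets of Gnb2, a G-protein beta subunit, changed by 0.28 and 0.00, neither of them called.

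Genes of the extracellular matrix were among the decreases. Col1a1, the alpha-1 chain of type I collagen, fell on both of its probesets. One read 2438, 3207 and 1941 in WKY, 851, 760 and 439 with ACTH and 1285, 1571 and 1660 in SHR, so that the groups were ordered ACTH, SHR and WKY without overlap. Its pooled change was -1.32 ± 0.23 (adjusted p = 0.0228), and the other Col1a1 probeset changed by -1.66 ± 0.33 (adjusted p = 0.0394). Col1a2, the partner chain, read 3448 to 4511 in WKY, 1622 to 1935 with ACTH and 2619 to 2878 in SHR on 1 probeset (-0.77 ± 0.13, adjusted p = 0.0206). On the other Col1a2 probeset the decrease was seen with ACTH but not in SHR (ACTH minus WKY -0.81, SHR minus WKY -0.06), and the pooled change of -0.43 ± 0.15 was not called (adjusted p = 0.217). Col6a3, a chain of the microfibrillar type VI collagen, fell by 0.75 ± 0.13 (adjusted p = 0.0247).

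By the probeset with the highest mean signal for each gene, 1 of 5 fibrillar collagens was called lower and none higher. The median of the 5 was -0.43, beside 0.01 over all 6898 genes, of which 38 were called higher (0.551%) and 44 lower (0.638%). By model, the median was -0.81 with ACTH and -0.09 in SHR. The call was Col1a1, and the others were Col5a1 at -0.72, Col1a2 at -0.43, Col3a1 at -0.30 and Col5a2 at -0.20. Without WKY 1, WKY 2 or WKY 3 none of the 5 was called, while the median stayed between -0.39 and -0.51. Enzymes that process and crosslink collagen showed a median of -0.24 (-0.40 with ACTH and -0.06 in SHR) with 2 of 18 called lower. These were P3h3, a member of the prolyl 3-hydroxylase family, and Lox, the oxidase that crosslinks collagen and elastin. P3h3 read 757, 857 and 774 in WKY, 471, 451 and 412 with ACTH and 284, 343 and 302 in SHR. All SHR arrays were below all ACTH arrays, and the change of -1.10 ± 0.12 (adjusted p = 0.0026) was called in all 9 fits without 1 array. Lox fell on 1 probeset by 0.64 ± 0.13 (adjusted p = 0.0478), from 731 to 881 in WKY to 454 to 610 on the hypertensive arrays, and was called in 2 of the 9 fits without 1 array. A second Lox probeset was not called (-0.56 ± 0.31, adjusted p = 0.461), and SHR 1 lay within its WKY range. Of the 22 genes of network collagens, laminins and nidogens 1, Col6a3, was called lower, with a median of -0.30 (-0.51 with ACTH and -0.04 in SHR).

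Matricellular proteins, which modify the contact of cells with the matrix, moved in both directions. Tnc, the adhesion-modulating tenascin-C, read 209, 110 and 126 in WKY, 55.3, 80.0 and 56.2 with ACTH and 48.9, 46.7 and 29.0 in SHR, and its pooled level was 0.353 times that of WKY (adjusted p = 0.0201). Ecm1, a secreted glycoprotein that binds matrix components, read 1396 to 1667 in WKY, 933 to 972 with ACTH and 619 to 741 in SHR. Its groups did not overlap, and the change of -0.92 ± 0.12 (adjusted p = 0.00572) was called in all 9 fits without 1 array. Spp1, osteopontin, rose instead, from 33.2 to 38.2 in WKY to 80.1 to 113 with ACTH and 46.6 to 85.6 in SHR (1.06 ± 0.20, adjusted p = 0.0310). Smoc1, a calcium-binding matrix protein, was lower in SHR only (SHR minus WKY -1.44, ACTH minus WKY -0.18) and was also called in the direct contrast of the models. Of the 11 matricellular genes 1 was called higher and 3 lower, and the list median was 0.29. Further shared decreases were those of Tnmd, a membrane protein of tendon and fibroblasts (-1.31 ± 0.18), and of Cpz (-1.34 ± 0.24) and Cpxm2 (-1.08 ± 0.21), both of the carboxypeptidase family. The 95% interval of SHR minus ACTH lay above 0 for Cpz (0.42 to 1.66) and Cpxm2 (0.08 to 1.17), the decreases being deeper with ACTH. A second Cpxm2 probeset was not called (-0.73 ± 0.18, adjusted p = 0.0917) and had SHR 2 above WKY. Sdc1, the cell-surface proteoglycan syndecan-1, fell on both of its probesets, by 0.87 ± 0.16 and 0.68 ± 0.13 (adjusted p = 0.0287 for each).

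The largest shared decrease was that of Sorl1, a sorting receptor of the endosome. On its first probeset it read 198, 155 and 111 in WKY, 45.4, 38.0 and 42.5 with ACTH and 55.6, 36.8 and 53.7 in SHR. The 2 models overlapped each other and neither overlapped WKY, and the change of -1.75 ± 0.20 (adjusted p = 0.00334) was called in all 9 fits without 1 array. A second Sorl1 probeset fell by 0.89 ± 0.13 (adjusted p = 0.0122), and the remaining one gave -0.05 ± 0.15 and was not called. Cntn2, a neuronal cell adhesion molecule, fell by 1.19 ± 0.13 (adjusted p = 0.0026) and was lowest in SHR. Ddit4, a stress-responsive inhibitor of mTOR that glucocorticoids and hypoxia are known to induce, fell by 1.17 ± 0.19 (adjusted p = 0.0201), with 279 to 393 in WKY, 121 to 151 with ACTH and 127 to 215 in SHR. Cdkn1a, the cell cycle inhibitor p21, fell by 0.90 ± 0.18 (adjusted p = 0.0368). Among the 19 glucocorticoid response genes 1, Angptl4, was called higher and 2, Ddit4 and Cdkn1a, lower, with a median of -0.16.

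Insulin-like growth factor binding proteins, which carry and limit the growth factors Igf1 and Igf2, went different ways. Igfbp2 read 475, 407 and 434 in WKY, 183, 159 and 233 with ACTH and 75.8, 245 and 150 in SHR. It fell by 1.42 ± 0.30 (adjusted p = 0.0495), just within the threshold. Igfbp5 fell by 0.90 ± 0.15 on 1 probeset (adjusted p = 0.0201), with all 6 arrays below WKY, but gave -0.38 ± 0.25 on a second, where SHR and WKY overlapped. Igfbp3 rose by 1.01 ± 0.17 (adjusted p = 0.0214) almost entirely with ACTH, at 901 to 1481 against 303 to 404 in WKY and 384 to 471 in SHR. Igf1 itself was at 1.23 and was not called (adjusted p = 0.150). In all, 1 of the 11 genes of this list was called higher and 2 lower, and the median was -0.16.

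Genes induced by interferon, which restrict viruses, were lower on the hypertensive arrays for 3 of the 21 measured, and none was called higher. Mx1, a dynamin-like antiviral GTPase, read 65.2, 95.3 and 121 in WKY, 27.4, 18.5 and 14.3 with ACTH and 42.7, 30.5 and 55.8 in SHR. All 6 arrays were below WKY, the change was -1.68 ± 0.26 (adjusted p = 0.0176), and the 95% interval of SHR minus ACTH, 0.44 to 1.78, lay above 0. Oas1a, an enzyme that makes 2'-5'-oligoadenylate on sensing double-stranded RNA, read 93.6, 96.6 and 140 in WKY, 62.5, 49.9 and 54.2 with ACTH and 67.9, 66.8 and 54.7 in SHR (-0.88 ± 0.16, adjusted p = 0.0287). Gbp2, a guanylate-binding protein, read 168, 187 and 187 in WKY, 89.6, 82.0 and 97.7 with ACTH and 143, 95.4 and 93.7 in SHR (-0.88 ± 0.16, adjusted p = 0.0247). The 3 genes had no overlap with WKY in common. The median of the list was -0.23 (-0.43 with ACTH and -0.09 in SHR), 10 of its genes had an unadjusted p under 0.05 in the lower direction and 1, Ifit1, in the higher direction (47.6% and 4.76%, beside 5.84% and 7.07% of all genes). Ifit1 stood at 1.27 in SHR and 0.15 with ACTH. The number called lower was 0 without WKY 3 and 1 without WKY 1, ACTH 1, ACTH 2 or SHR 2. Probesets of the Mx and Oas families may take signal from close relatives.

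The factor complex that interferon activates binds a repeated GAAA element, and the sequence upstream of 2 of these genes is shown to place it. The letters GAAA, any 2 bases and GAAA again were searched on both strands (TTTC in place of GAAA on the other) in the 250 bases before each gene start in RefSeq promoters of build GRCr8, overlapping matches included. It was present in 1140 of 33469 promoters (3.41%) and in 11 of the 17 list genes that the table holds. Oas1a held 2 overlapping matches, and Gbp2 held 1 on the opposite strand. In Mx1 these letters were not in this window. The upstream sequences run 5' to 3' with matches in capitals, Oas1a at chr12:41330216-41330465 and Gbp2 at chr2:234005477-234005726, both on the plus strand.
Oas1a: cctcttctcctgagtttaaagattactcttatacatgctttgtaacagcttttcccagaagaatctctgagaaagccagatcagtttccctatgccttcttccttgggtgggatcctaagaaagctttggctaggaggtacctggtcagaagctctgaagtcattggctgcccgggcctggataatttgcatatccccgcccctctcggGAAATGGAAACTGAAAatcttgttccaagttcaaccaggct
Gbp2: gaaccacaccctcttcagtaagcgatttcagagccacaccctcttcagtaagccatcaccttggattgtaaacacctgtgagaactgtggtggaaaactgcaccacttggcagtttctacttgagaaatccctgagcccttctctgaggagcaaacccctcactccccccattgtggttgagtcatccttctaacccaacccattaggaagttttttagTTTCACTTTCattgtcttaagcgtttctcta
The matches began 41 and 35 bases before the start of Oas1a and 31 bases before that of Gbp2. A match describes the sequence and is no evidence of binding in these arteries.

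**Figure D3:**
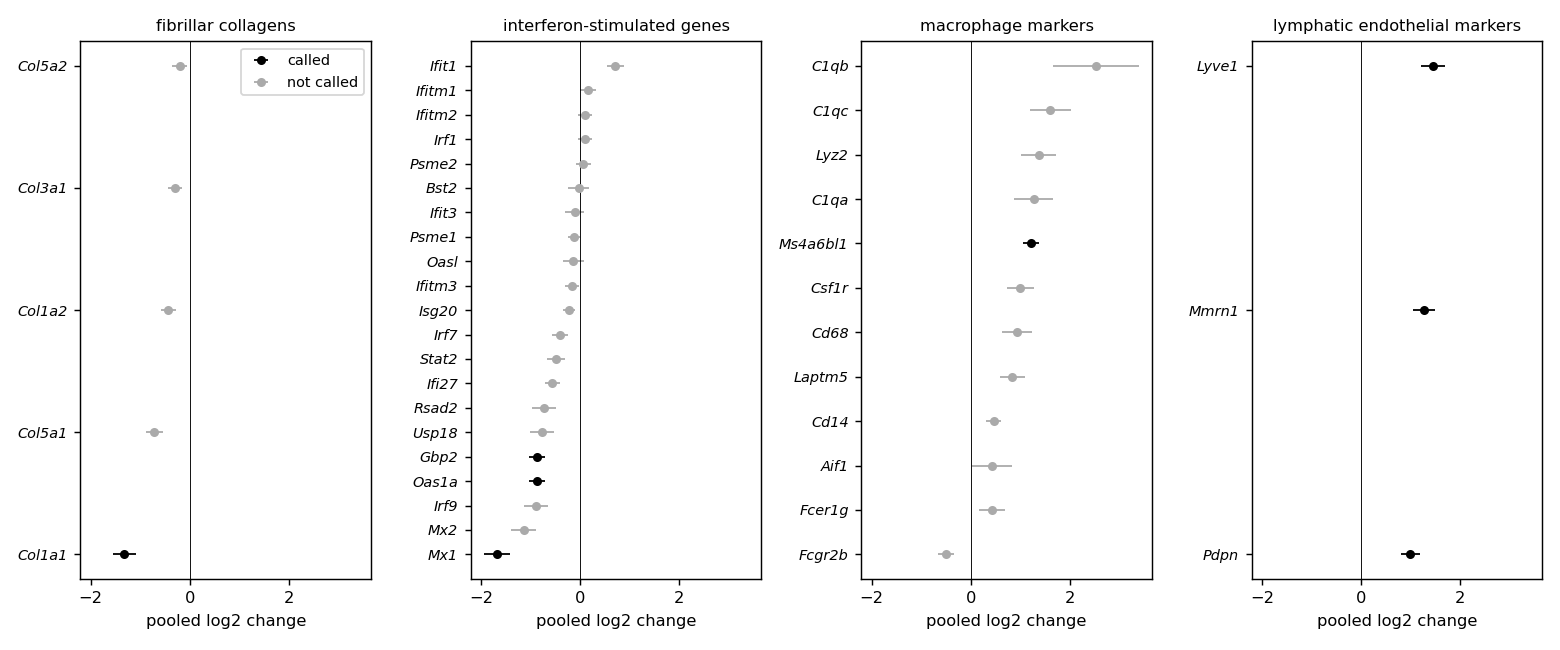
Pooled log2 change with its standard error (horizontal axis) for the kept genes of 4 lists, each by the probeset with the highest mean signal. Called genes, in black, are 1 of 5 fibrillar collagens, 3 of 21 interferon-stimulated genes, 1 of 12 macrophage markers and 3 of 3 lymphatic endothelial markers. The lists were chosen with earlier results of these data known.

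The 3 measured markers of lymphatic endothelium were higher on the hypertensive arrays. The list was Lyve1, a hyaluronan receptor, Mmrn1, the secreted multimerin-1, and Pdpn, the membrane mucin podoplanin. The study had already listed Mmrn1 and Pdpn, as Mmn1 and Gp38, among genes raised in both models on these arrays. This list was chosen with earlier results known, so its calls are a description and no test of a cell type. The 3 genes were called higher, at 1.45 ± 0.24, 1.27 ± 0.22 and 0.99 ± 0.20 (adjusted p = 0.0201, 0.0247 and 0.0395). Lyve1 read 27.4, 46.7 and 33.9 in WKY, 133, 153 and 98.3 with ACTH and 72.0, 51.9 and 103 in SHR, and the lowest hypertensive array was little above WKY 2. Summed over the list, the signal was 138, 170 and 156 in WKY, 459, 450 and 433 with ACTH and 350, 214 and 315 in SHR. Lyve1 is also carried by macrophages around vessels and Pdpn by fibroblasts, so the list does not mark lymphatic cells alone. None of the 3 was called without WKY 1, without WKY 3 or without ACTH 1. With scan day as a block none was called either, the list median was 0.59 in place of 1.27, and Lyve1 was at 0.53. In whole artery RNA, more cells of a type and more RNA per cell cannot be told apart.

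Genes of macrophages were higher on most hypertensive arrays, but WKY 2 stood with them. Their summed signal was 633, 1662 and 749 on WKY 1, 2 and 3, 1928 to 2806 with ACTH and 1315 to 1852 in SHR, so that WKY 2 lay within the SHR range. The median change of the 12 markers was 0.97, yet only Ms4a6bl1, a membrane protein of myeloid cells, was called (1.22 ± 0.17, adjusted p = 0.00863). It read 20.8, 30.5 and 33.1 in WKY, 91.7, 103 and 97.8 with ACTH and 49.7, 41.4 and 37.0 in SHR. Of the 12 markers 11 were positive, and Fcgr2b went the other way (-0.50, adjusted p = 0.206). At an unadjusted p under 0.05 in limma 9 were higher and 1 lower (75% and 8.33%, beside 7.07% and 5.84% of all genes). With scan day as a block, in which WKY 2 is the only control that shares a day with hypertensive arrays, the median was 0.22, 8 of the 12 were positive and none was called. Leaving out WKY 2, the control with the highest sum, moves the list upward by construction, and 1.33% of all genes were then called higher. Of the 12 markers 6 were: C1qa and C1qc, subunits of the first complement component, Cd68, a lysosomal protein of macrophages, Laptm5, a lysosomal protein of blood cells, Lyz2, the lysozyme, and Ms4a6bl1. C1qa, for example, read 37.0, 181 and 59.4 in WKY and 114 to 303 on the hypertensive arrays, a change of 1.27 (adjusted p = 0.182) with WKY 2 and 1.92 (adjusted p = 0.00525) without it. The list of complement genes, which shares C1qa, C1qb and C1qc, went from 0 to 5 of 11 called, with Cfd, Serping1 and C5ar1 added. Clec4a3, a lectin receptor of myeloid cells, was a shared increase with all arrays (10.5, 18.6 and 9.17 in WKY, 51.1 to 76.0 with ACTH and 23.5 to 46.5 in SHR, 1.86 ± 0.27, adjusted p = 0.0122). Pf4, the chemokine platelet factor 4, which some macrophages also make, rose by 1.37 ± 0.26 (adjusted p = 0.0294), with 57.2, 140 and 84.8 in WKY and 146 to 423 on the hypertensive arrays. The part of the macrophage markers in other results was not tested. Over the called increases, WKY 2 was the control array nearest to the hypertensive ones in 31 of 53, and over all kept probesets it was the highest control in 34.9%.

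**Figure D4:**
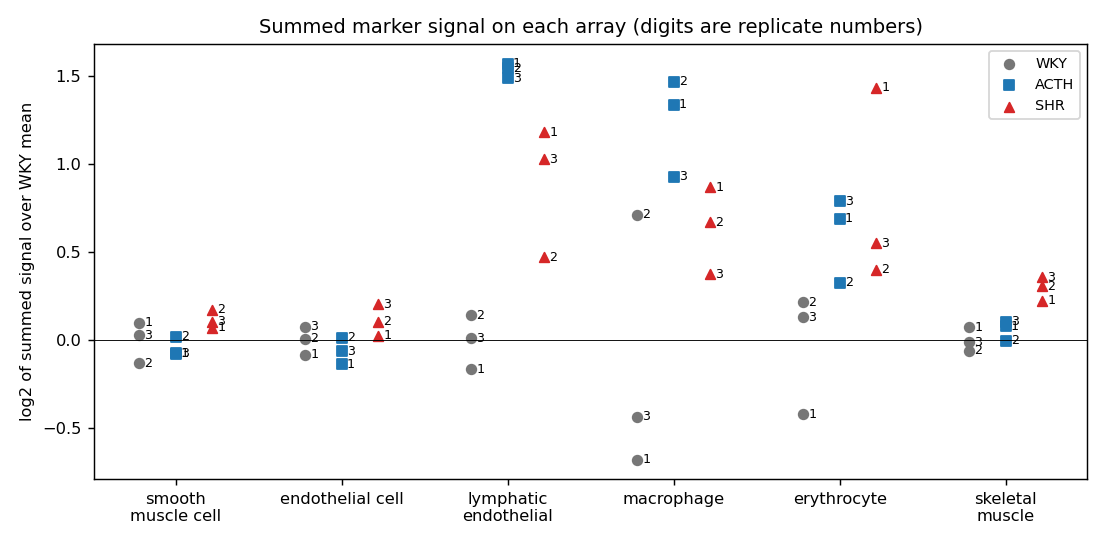
Log2 of the summed signal of 6 marker lists on each array over the WKY mean (vertical axis), with 1 point per array and replicate numbers beside the points. Lymphatic endothelial sums lie above WKY on all 6 hypertensive arrays, and macrophage sums lie above WKY 1 and WKY 3 but overlap WKY 2. Smooth muscle sums of both models overlap WKY, and those of SHR lie above those of ACTH.

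Erythrocyte markers (Hbb, a haemoglobin chain, and Alas2, the first enzyme of haem synthesis in red cells) summed to 199 to 309 in WKY and 333 to 719 on the hypertensive arrays, highest on SHR 1. Neither gene was called (0.71 and 0.81, adjusted p = 0.238 and 0.120). Blood left in the vessel was not measured otherwise.

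Genes of coagulation were called higher for 3 of the 17 measured and lower for none, beside 0.551% and 0.638% of all genes, at a list median of 0.12. At an unadjusted p under 0.05 in limma 5 were higher and 3 lower (29.4% and 17.6%, beside 7.07% and 5.84% of all genes). Under several alternatives, among them median centring and the intensity trend, 1 gene of the list was called lower. Thbd, thrombomodulin, the endothelial brake on thrombin, was the shared one: it read 152, 225 and 229 in WKY, 453, 322 and 428 with ACTH and 415, 355 and 346 in SHR (0.95 ± 0.17, adjusted p = 0.0273), and its second probeset lay at 0.55 (adjusted p = 0.126) with the 6 arrays also above WKY. F3, tissue factor, which starts coagulation, rose by 0.79 ± 0.14 (adjusted p = 0.0247), mostly with ACTH, at 903 to 943 against 330 to 460 in WKY and 412 to 538 in SHR. Tfpi, the inhibitor of that pathway, rose by 0.98 ± 0.18 (adjusted p = 0.0287), mostly in SHR, at 113 to 143 against 36.4 to 46.6 in WKY and 36.5 to 61.8 with ACTH. A second Tfpi probeset was not called (0.81 ± 0.35, adjusted p = 0.336), stood at 0.91 in SHR and 0.70 with ACTH, and gave -0.13 with scan day as a block. None of the 3 coagulation genes was called without WKY 1, WKY 3, ACTH 1, ACTH 3 or SHR 2. Of 17 endothelial markers 3 were called higher (Mmrn1, Thbd and Flt1, a receptor of vascular endothelial growth factor) and none lower, with a median of 0.29, while Vwf, the von Willebrand factor, was at -0.84 and missed the threshold (adjusted p = 0.0600).

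Smaller shared increases included Gstm1, a glutathione transferase (0.58 ± 0.11, adjusted p = 0.0287), and Srxn1, sulfiredoxin, which restores oxidised peroxiredoxins (0.75 ± 0.13, adjusted p = 0.0206). These were the 2 calls among 39 glutathione, antioxidant and metallothionein genes, and none was called lower. Acta1, the skeletal muscle actin also made in arterial smooth muscle, rose by 0.75 ± 0.13 (adjusted p = 0.0228), from 420 to 574 in WKY to 668 to 919. One probeset of Myh1, a myosin heavy chain of skeletal muscle, fell by 0.74 ± 0.14 (adjusted p = 0.0287) with all 6 arrays below WKY, and 4 others of the gene gave -0.06 to -0.70 and were not called. Of the 6 skeletal muscle markers 1, Acta1, was called higher and none lower by the strongest probeset, with a median of -0.16 and 2 of 6 positive. One probeset of Ide, a protease of insulin, rose by 1.05 ± 0.16 (adjusted p = 0.0153), but 2 others gave 0.14 and 0.00. One of Pdha1, a subunit of pyruvate dehydrogenase, rose by 0.86 ± 0.13 (adjusted p = 0.0122), and another gave 0.07. For Ide and Pdha1 the probesets thus disagreed, as for Cav1. The larger metabolic and housekeeping lists held few calls or none. Of 91 genes of the mitochondrial ribosome and protein import 1 was called lower, Mrpl4, a ribosomal protein (-0.54 ± 0.11, adjusted p = 0.0494). None of 81 genes of oxidative phosphorylation, 42 cytosolic ribosomal proteins and 43 proteasome genes was called, with medians of -0.03, 0.12 and 0.03. Contractile genes of smooth muscle were also without a call (0 of 21, median -0.14).

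The pooled contrast also called genes that changed much more in one model. Basp1, a membrane protein of growing nerve endings, had the largest change among genes with 1 symbol (-3.53 ± 0.23, adjusted p = 4.89e-05). It read 204, 194 and 111 in WKY, 48.1, 40.9 and 43.9 with ACTH and 3.84, 6.49 and 3.85 in SHR, 3 levels without overlap. Ptprj, a receptor tyrosine phosphatase, was called at -2.72 ± 0.17 although ACTH (141 to 164) overlapped WKY (125 to 157), since SHR read 2.27 to 3.88. Signals this low give no exact size, and with values under 20 raised to 20 the change was -2.46 for Basp1 and -1.37 for Ptprj, both still called. Prss35, a serine protease-like protein, Sema4b, a semaphorin, and Ythdf2, a reader of methylated RNA, were of the same kind, although a second Ythdf2 probeset gave -0.03 and was not called (adjusted p = 0.962). Csnk2a1, the catalytic subunit of casein kinase 2, rose by 2.36 ± 0.28 with signals of 4.10 to 5.64 in WKY, 6.33 to 18.7 with ACTH and 48.9 to 50.2 in SHR, while 2 other probesets of the gene gave -0.08 and -0.15. Cbl, a ubiquitin ligase, rose by 1.33 ± 0.26 on 1 probeset and gave -0.04 on another. Enpp1, which makes pyrophosphate outside the cell, rose by 1.41 ± 0.24, mostly in SHR, and by 0.83 with values under 20 raised to 20.

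Unequal changes led by ACTH were fewer. Rbp4, the retinol carrier of plasma, rose by 1.94 ± 0.32 (adjusted p = 0.0201), from 10.8 to 32.2 in WKY to 112 to 188 with ACTH and 26.1 to 48.9 in SHR. Angptl4, an inhibitor of lipoprotein lipase that glucocorticoids are known to induce, rose by 1.24 ± 0.23 and Enpep, aminopeptidase A, which cleaves angiotensin II, by 0.88 ± 0.13, although a second Enpep probeset gave 0.29 and was not called. Nr1d1, the clock repressor Rev-erb alpha, read 279, 393 and 421 in WKY, 63.0, 78.5 and 69.7 with ACTH and 110, 265 and 305 in SHR, and fell by 1.57 ± 0.29 (adjusted p = 0.0287). SHR 3 was the 1 hypertensive array within the WKY range. It was the 1 call among 12 clock genes, whose median was -0.28 (-0.50 with ACTH and -0.04 in SHR).

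**Figure D5:**
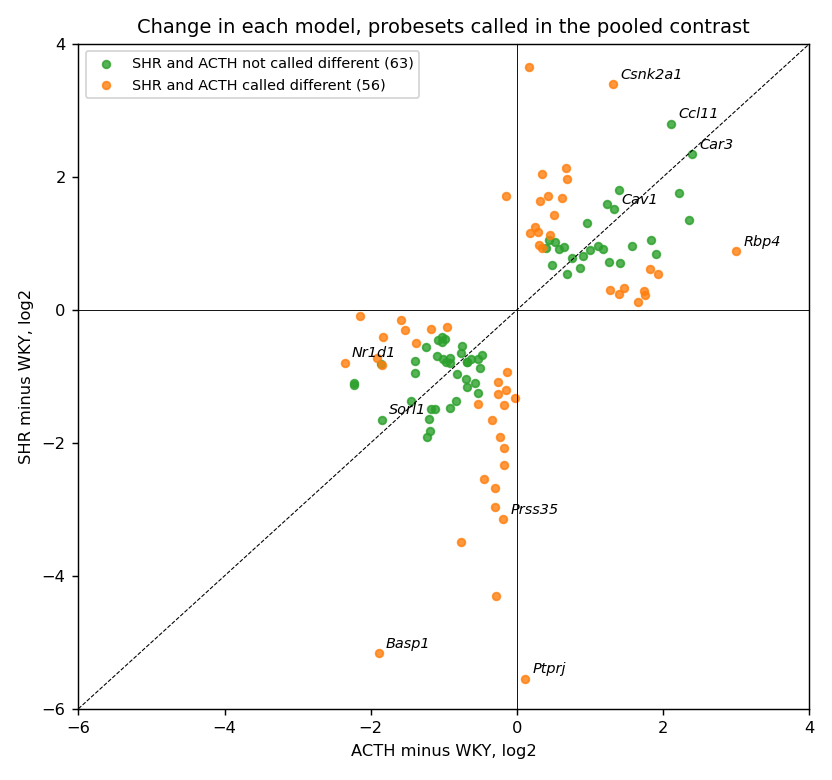
Change from WKY with ACTH (horizontal axis, log2) and in SHR (vertical axis, log2) for the 119 probesets called in the pooled contrast, the dashed line marking equal changes. Both axes use the same 3 WKY arrays, so the points are not independent of each other along the line. Green points, 63, were not called in the direct contrast of SHR and ACTH and orange points, 56, were.

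How far the calls rest on single arrays differed between genes. Of the 119 probesets 18 were called in each of the 9 fits without 1 array, 7 higher and 11 lower. Those with a symbol were Csnk2a1, Inmt, Cav1, Ms4a6bl1 and Reln among the increases and Basp1, Ptprj, Sorl1, Slfn4, Cntn2, P3h3 and Ecm1 among the decreases. The number of calls was 32 without WKY 1, 21 without WKY 3, 44 without ACTH 1, 63 without ACTH 2 and 70 without SHR 2, and it was 163 without WKY 2, of which 113 were higher. With the 6 hypertensive arrays as 1 group, so that differences between models count as error, 3 probesets were called, those of Cav1, Inmt and Sorl1 (adjusted p = 0.0191, 0.0274 and 0.0191). With scan day as a block no probeset was called in limma (910 at an unadjusted p under 0.05), and all 119 kept their sign, at a median of 0.884 times the size for increases and 1.08 times for decreases. On the only day that held both sides, SHR 1 and SHR 2 minus WKY 2 lay on the side of the pooled change for 50 of the 53 increases and 66 of the 66 decreases, beside 74.3% of all kept probesets. These 3 arrays also entered the calls, so the counts are a description. The value was 1.90 for Cav1, 1.26 for Inmt and -1.78 for Sorl1, but 0.39 for Lyve1, 0.29 for Pdpn, 0.22 for Pf4, 0.05 for Enpep and -0.04 for Angptl4.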

How the data were processed

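Arteries were measured on 9 Affymetrix RAE230A arrays. The authors made the deposited signal intensity of each probeset with MAS5, scaled it to a target of 150 per array and deposited it on a linear scale, and per the file headers each array's scan day is given in its experiment file, a non-numeric field, which was taken as other information. Detection calls were not used here. Signals were log2 transformed, controls and probesets with a third-highest signal under 44.3 were left out, and 9099 remained, of which 7721 had 1 gene symbol in the platform annotation, 220 several and 1158 none. Symbols were not changed by RefSeq (7701 found there).

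The 3 groups were fitted together in R 4.3.3 with limma 3.58.1 (lmFit and eBayes without trend, 6 residual and 4.43 prior degrees of freedom), with two-sided p-values adjusted by Benjamini-Hochberg over 9099 probesets. The pooled contrast was the mean of SHR and ACTH minus WKY, and SHR minus ACTH came from the same fit. The fit was tested on simulated data. Replicates were pools of 2 to 3 rats, and 3 arrays per group limit the precision. The members and the gene lists were chosen with earlier results of these data known. Named genes followed a rule over calls with a single symbol: the 15 strongest in each direction that did not overlap WKY and did not differ between models, the 6 largest in each direction that did, up to 4 called members of each list, and the genes the study chose on these arrays, with their other probesets. One gene that the study chose is not reported here. In the text, Slfn4 and uncalled list members such as Col5a1 were added after their values were seen. Lists used the probeset with the highest mean signal per gene. Groups of arrays were compared for the control ratios by exact permutation in scipy 1.17.1. Alternatives changed the filter (no minimum, or a mean signal of 100 or more), the scaling (quantile or median), low signals (a pseudocount of 16, a floor of 20), the model (trend, array weights, no moderation, 1 hypertensive group), the terms (GAPDH ratio, scan day, replicate number) and the arrays (each left out).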

Additional observations from a re-analysis of the deposited data

Results flagged for a closer look

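The pooled contrast averages 2 models, and for the following probesets the models themselves differed by the direct limma contrast of SHR minus ACTH at an adjusted p under 0.05, which is what brought them here. Decreases that were deeper in SHR differed by -5.66 for Ptprj, -3.27 for Basp1, -2.96 for Prss35, -2.67 for Sema4b, -2.38 for Ythdf2, -1.26 for Smoc1 and -0.80 for Mrpl4, a mitochondrial ribosomal protein. The SHR signals of Ptprj, Basp1 and Sema4b were all under 20, so the sizes of these 3 differences are not exact. Decreases that were deeper with ACTH differed by 1.56 for Nr1d1, 1.43 for RT1-T24-3, a histocompatibility gene, 1.24 for Adamts9, a matrix protease, 1.19 for 1 probeset of Col1a1, and 0.89 each for Fmod, the collagen-binding fibromodulin, and Gadd45g, a growth arrest gene. The 2 probesets of Rgs2 differed by 1.29 and 0.69, and the first of these was not called in the pooled contrast.

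Increases that were larger in SHR differed by 2.08 for Csnk2a1, 1.46 for Enpp1, 1.33 for Tfpi, 1.29 each for Cbl and Flt1, 1.00 for Minpp1, an inositol polyphosphate phosphatase, 0.67 for RT1-A3, a class I histocompatibility gene, and 0.59 for Glud1, glutamate dehydrogenase, whose second probeset was not called in the pooled contrast. Increases that were larger with ACTH differed by -2.12 for Rbp4, -1.54 for Enpep, -1.54 and -1.45 for the 2 probesets of Igfbp3, -1.40 for Angptl4, -1.20 for Ms4a6bl1 and -0.98 for F3. The ACTH signals of Csnk2a1 and most of those of Enpp1 were under 20, so the sizes of these 2 differences are not exact either. RT1 probesets may take signal from related genes. What these differences come from was not tested.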

How the results depend on the processing

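With all non-control probesets, without moderation, with the 6 hypertensive arrays as 1 group, with the GAPDH 3' to 5' ratio as a covariate and with scan day as a block, the calls numbered 12, 12, 3, 9 and 0 against 119. Higher calls were then 4, 4, 2, 1 and 0, lower calls 8, 8, 1, 8 and 0, and calls with all 6 hypertensive arrays beyond WKY 11, 11, 3, 5 and 0. Calls that also differed between SHR and ACTH numbered 6 with all non-control probesets, 5 without moderation, 6 with the covariate and 0 with the scan day block, and that count was not run with 1 hypertensive group. More probesets tested, fewer degrees of freedom and the difference between models counted as error are part of how these alternatives were built, and other causes were not tested. The scan day block rests on WKY 2 as the only control that shares a day with hypertensive arrays. Scan day and group are therefore poorly separated in it, and the part of scan day in the lost calls was not tested. The intensity trend gave 175 calls, 81 of them higher and 94 lower. Quantile normalization, array weights, a floor of 20, median centring, a pseudocount of 16 and a minimum mean signal of 100 gave 107 to 155 calls, with 37.4% to 48.6% of them higher against 44.5%.

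Leaving out 1 array gave 21 to 163 calls, 9 to 113 higher and 12 to 58 lower, 17 to 145 calls with all hypertensive arrays beyond WKY and 13 to 61 that also differed between the models. The lowest of these came without WKY 3 and the highest, except for lower calls, without WKY 2. The GAPDH ratio difference lay between -1.56 and -1.02 without 1 array and passed the threshold only without SHR 3, and that of beta-actin between -4.41 and -2.52, where without any WKY array p was 0.0714, the smallest possible there.

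The named probesets that were called kept their sign under every alternative. The sign turned in uncalled ones, most of them near 0. With the scan day block the second probeset of Tfpi (0.81) gave -0.13, those of Csnk2a1 (-0.15) and Cbl (-0.04) gave 0.16 and 0.090, and 2 of Myh1 (-0.06 and -0.33) gave 0.11 and 0.52. With the GAPDH covariate Pdha1 (0.07) gave -0.043 and Ide (0.14 and 0.00) -0.21 and -0.069. That last Ide probeset gave -0.00067 with quantile normalization and -0.046 with array weights, where the first Myh1 probeset gave 0.084 and Ythdf2 (-0.03) 0.024. Without 1 array the ranges were -0.28 to 0.083 for Csnk2a1, -0.11 to 0.022 for Cbl, -0.13 to 0.081 for Ide, -0.32 to 0.36 and -0.73 to 0.11 for Myh1, -0.17 to 0.017 for Sorl1 (-0.05) and -0.21 to 0.11 for Ythdf2. The Cav1 probeset that was not called (-0.09) gave 0.32 with the scan day block and -0.31 to 0.16 without 1 array. The uncalled Gnb2 probeset at 0.00 gave 0.016 with quantile normalization, 0.0046 with median centring, 0.0016 with log2 of signal plus 16, 0.12 with array weights, 0.24 with the GAPDH covariate and -0.12 to 0.18 without 1 array.

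Replicate numbers are shared by the groups, but the deviations of arrays with the same number correlated at only -0.07 to 0.13, so the numbers were not taken as pairs. With a replicate block 103 probesets were called, 49 higher and 54 lower, and 87 of them were among the 119. The MAS5 signal of dim probesets limits several large changes: with signals under 20 raised to 20, Csnk2a1 changed by 0.66 in place of 2.36, Basp1 by -2.46 in place of -3.53, Ptprj by -1.37 in place of -2.72 and Clec4a3 by 1.14 in place of 1.86, while Sema4b was no longer called (adjusted p = 0.0922).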

Other observations

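Several lists had medians away from that of all genes (0.01) without a call or with few. The 7 genes of the renin-angiotensin system measured by their strongest probeset all had positive values, with a median of 0.50, and none was called (2 at an unadjusted p under 0.05 in limma). Agtr1a and Agtr1b, the angiotensin receptors, were at 0.50 and 0.51, and Ace, the converting enzyme, was at 0.26. Immediate early transcription factors had a median of 0.39 over 19 genes, 16 of them positive, and none was called. Hsd11b1, which regenerates active glucocorticoid, was at 1.02 in SHR and 1.09 with ACTH, with all 6 arrays above WKY, and missed the threshold (pooled change 1.05, adjusted p = 0.100).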
